A study of Mus musculus with 4 samples.

Results

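The 9 transcription factors Emx1, Emx2, Tbr1, Eomes, Lhx2, Dmrta2, Dlx1, Dlx2 and Six3 pattern the forebrain of the mouse embryo, and their RNA was measured here in brain and limb after conditional ablation of Rest. They were chosen by gene name and make up 9 of the 27629 genes and 11 of the 41174 probes on the array. Emx2 and Six3 had 2 probes each and the other members 1. The groups were Rest CKO brain, WT brain, Rest CKO limb and WT limb, each with 1 array, at E13.5 (embryonic day) on a background of 129 and C57BL/6. CKO stands for conditional knockout: Cre recombinase, switched on by doxycycline from E8.5 to E13.5, removes a floxed part of Rest. The labels record doxycycline for the WT samples too. The promoter that drives Cre, the alleles that WT embryos carry and the number of embryos behind an RNA sample are not stated in the labels.

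The front of the neural tube divides into a dorsal pallium, which forms cortex and hippocampus, and a ventral subpallium, which forms the basal ganglia and sends out inhibitory interneurons. Emx1, Emx2, Lhx2 and Dmrta2 are regulators of pallial progenitors, Eomes marks their intermediate progenitor daughters and Tbr1 the young glutamatergic neurons that follow. Dlx1 and Dlx2 direct interneuron formation in the subpallium, and Six3 acts in the anterior neural plate, the ventral forebrain and the eye. Several of these genes also work outside the brain: Lhx2 in outgrowth of the limb bud, Emx2 in the shoulder girdle and Dlx genes in the ectodermal ridge at the limb's edge. Rest encodes a zinc-finger repressor of neuronal genes.

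Signals are given as log2 values relative to the 75th percentile of their own array, so 0 is that percentile, and a difference is CKO minus WT unless stated. A probe was called measured where the scanner software found it well above background, which held for 70.7% of spots on the CKO brain array, 64.5% on WT brain, 68.6% on CKO limb and 62.7% on WT limb. Rest itself was lower in CKO at each of its 3 probes, by 4.03-fold to 17.2-fold in limb and by 1.88-fold to 11.9-fold in brain, where 1 probe was not above background in CKO. All 18 limb regulators of a list (Tbx5, Hoxd13, Prrx1 and others) were measured on both limb arrays, against 12 in CKO brain and 11 in WT brain. Each group is a single array, so no test of genotype within limb or within brain was possible, and a gene was called where it differed at least 2-fold. The only error available there is technical: over 245 probes printed 10 times on each array, the SD of a single spot's difference had a median of 0.10 log2 in limb and 0.098 in brain. It covers neither labelling nor differences between embryos.

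Most members were brain genes, and all but Tbr1 and Eomes were also measured in limb. Over all 4 arrays, 6 of the 9 members were higher in brain than in limb by limma's test at an adjusted p under 0.05, against 25.0% of the 19982 genes tested, and 0 were higher in limb, against 25.9%. Tbr1 and Eomes had the widest separation. Tbr1 stood at 1.21 in CKO brain and 1.60 in WT brain and was not above background in either limb sample, which makes it at least 108-fold higher in brain (adjusted p = 0.0258, limma). That call was lost without the CKO brain array (adjusted p = 0.0587, limma) or the WT brain array (adjusted p = 0.0646, limma), fits whose own spread for Tbr1 is that of the 2 limb values, both at background. Eomes stood at 0.86 in CKO brain and 1.38 in WT brain, again with no limb signal above background, and was at least 87.7-fold higher in brain (adjusted p = 0.0206, limma). For both genes the fit used the limb signals as they stood, at background.

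The subpallial pair also favoured brain. Dlx1 was at 1.02 in CKO brain and 1.27 in WT brain, against -3.29 in CKO limb and -3.02 in WT limb, 19.8-fold higher in brain (log2 difference 4.31, SE 0.060, adjusted p = 0.0206, limma). Dlx2 was 9.54-fold higher in brain (3.25, SE 0.12, adjusted p = 0.0206), with 2.03 in CKO brain and 2.32 in WT brain against -1.37 in CKO limb and -0.79 in WT limb. Lhx2, a LIM-homeodomain factor, had strong signal in both tissues, with 4.38 in CKO brain and 4.74 in WT brain against 1.77 in CKO limb and 1.87 in WT limb (6.69-fold, adjusted p = 0.0206, limma). Emx1, a homeodomain factor of pallial progenitors, was at 0.29 in CKO brain and 0.72 in WT brain against -2.04 in CKO limb and -1.90 in WT limb, 5.57-fold higher in brain (2.48, SE 0.12, adjusted p = 0.0208, limma).

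Emx2, Dmrta2 and Six3 did not pass this test. Emx2 had nearly the same signal in both tissues, at -0.35 in CKO brain and -0.04 in WT brain, against -0.38 in CKO limb and -0.11 in WT limb (difference 0.05, SE 0.060, adjusted p = 0.550, limma). Its dimmer probe lay at -2.94 in CKO brain and -2.73 in WT brain, against -2.70 in CKO limb and -2.38 in WT limb. For Dmrta2 and Six3 the 2 limb arrays lay far apart, so the SE was large: 4.27 (SE 1.15, adjusted p = 0.0947) for Dmrta2 and 0.92 (SE 2.62, adjusted p = 0.782) for Six3. In fits with tissue alone that left out the CKO limb array, the difference was 2.48 for Dmrta2 and -2.78 for Six3, and without the WT limb array it was 6.05 for Dmrta2 and 4.62 for Six3. Six3 thus changed sign. These 4 fits hold 1 limb array each, so a gene's own spread is that of the 2 brain arrays, and no test is read from them. The plot of signals by array shows the spread, with every other member above background in limb differing by less than 1.5-fold between the 2 limb arrays.

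**Figure D1:**
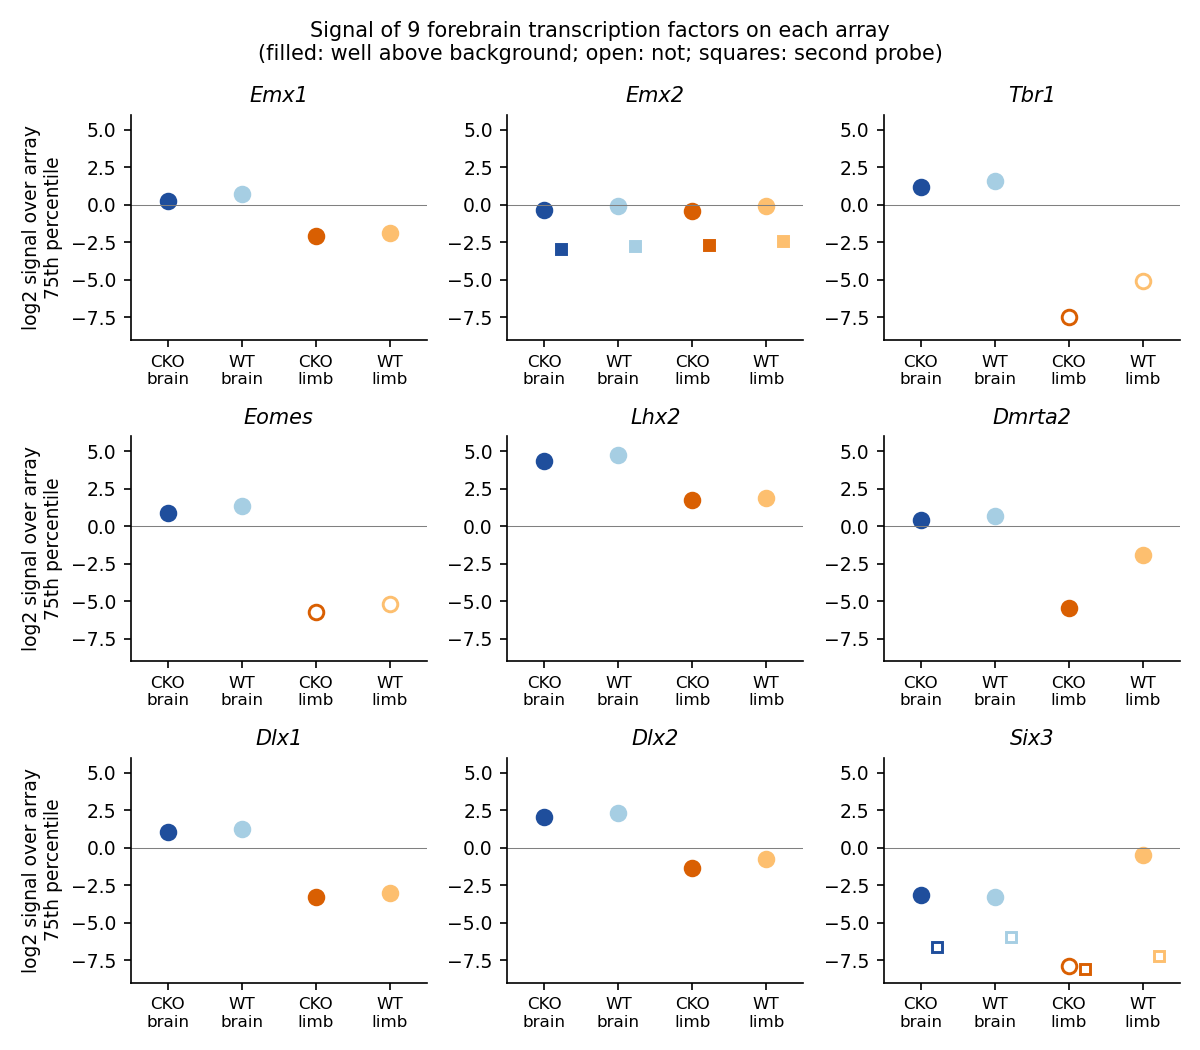
Signal of each of the 9 members on each array. The vertical axis is log2 signal over the array's 75th percentile, and the arrays run CKO brain, WT brain, CKO limb, WT limb; filled points are well above background, open points are not, and squares are the dimmer probes of Emx2 and Six3. Tbr1 and Eomes are open in limb, Emx2 is nearly level over the 4 arrays, and the brighter Six3 probe is highest in WT limb, at -0.47.

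In brain, 8 of the 9 members were lower in CKO than in WT by a modest amount, and 0 differed 2-fold. Over all 18945 genes compared, 53.0% were below 0, 1.22% were at least 2-fold lower and 1.37% at least 2-fold higher. At 1.5-fold the members' count was still 0 in either direction, against 1.98% of all genes lower and 3.48% higher. The median difference of the members was -0.31 log2, against -0.01 over all genes. In whole tissue, fewer cells of a type and less RNA per cell cannot be told apart.

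Among the pallial members Eomes and Emx1 had the largest differences. Eomes differed by -0.52 log2, 69.8% of the WT signal, with a technical SD of 0.067. Emx1 was at 0.29 in CKO brain and 0.72 in WT brain, which is 74.0% of WT (-0.43, technical SD 0.067). Tbr1 was at 75.9% of WT (-0.40, technical SD 0.061) and Lhx2 at 78.0% (-0.36, technical SD 0.061). Each of these 4 differences was several times its technical SD, and each lay among the lowest 3.88% of all genes compared in brain. Eomes and Emx1 were the lowest, with 2.33% and 2.98% of genes at or below them.

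Emx2 and Dmrta2, which take part in setting medial and caudal cortical identity, differed less. Emx2 stood at 80.7% of WT at its brighter probe (-0.31, technical SD 0.073) and at 86.9% at the dimmer one (-0.20, technical SD 0.11). Dmrta2 was at 0.45 in CKO brain and 0.71 in WT brain, 83.5% of WT (-0.26, technical SD 0.073). The subpallial Dlx1 and Dlx2 were at 84.3% and 82.1% of WT (-0.25 and -0.28, technical SD 0.061 each). The 8 lower members therefore lay between -0.52 and -0.25, and 6.75% of all genes or fewer were as low as any of them. Among the 824 genes at least 8-fold higher in brain than in limb, that share was larger, reaching 11.0% for Dlx1. The scanner software's own error of a difference was about 0.20 log2 for these genes, so single differences near -0.25 are little larger than it.

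Six3 was the exception in brain. It was dim in both samples, at -3.18 in CKO brain and -3.31 in WT brain, a difference of 0.13 with a technical SD of 0.12. Its difference was -0.01 with the normexp background correction and -0.27 as the mean of its 2 probes, so it has no settled sign in brain. Six3os1, the noncoding RNA transcribed next to Six3 from the opposite strand, differed by 0.04, with -4.92 in CKO brain and -4.96 in WT brain.

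**Figure D2:**
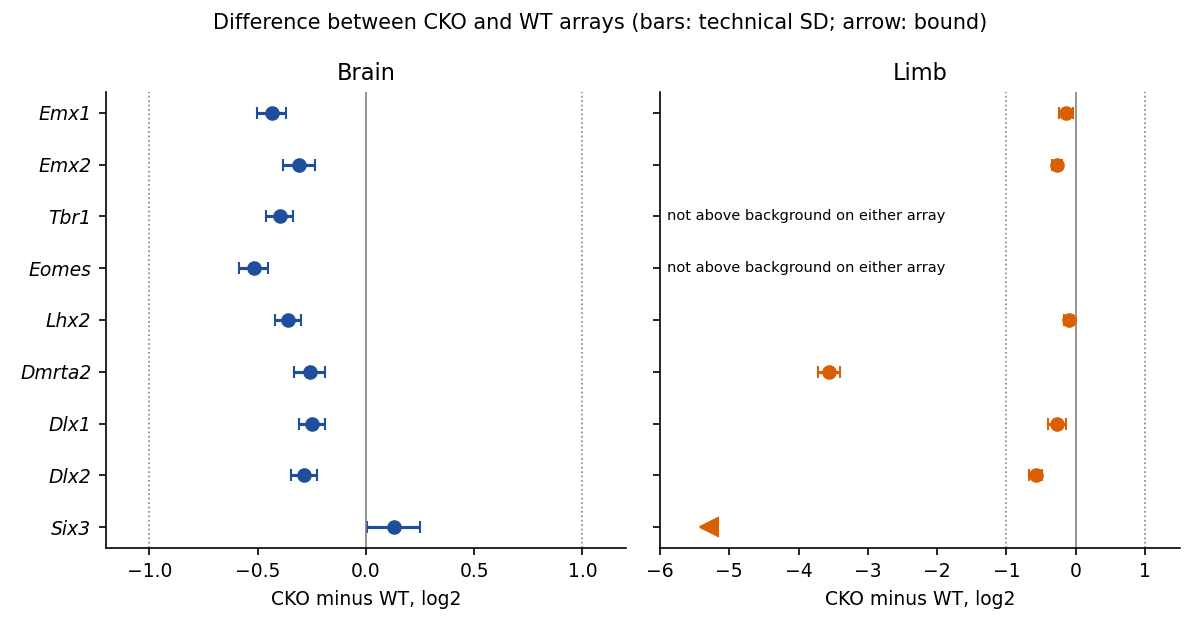
CKO minus WT difference of each member in brain (left) and limb (right), in log2, with the technical SD as bars; dotted lines mark 2-fold. In brain 8 members lie between -0.52 and -0.25 and Six3 at 0.13, while in limb Dmrta2 lies at -3.56 and the Six3 bound at -5.29, on a wider axis.

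Other genes of the same regions were also mostly below 0 in brain. Among 16 other pallial regulators, all measured, 13 were below 0 and the median was -0.26. Neurog2, the proneural factor of the pallium, was at 1.49 in CKO brain and 2.03 in WT brain (-0.54). Among the other subpallial regulators, 9 of the 11 measured were below 0, with a median of -0.24. There Lhx8, a factor of cholinergic neurons, was at 0.45 in CKO brain and 0.11 in WT brain (0.35). No gene of either list differed 2-fold.

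Regulators of regions behind the telencephalon had medians at or slightly above 0. Of 24 measured midbrain and hindbrain regulators, 6 were below 0, and their median was 0.07. Phox2a, which specifies noradrenergic and motor neurons of the hindbrain, was at -2.43 in CKO brain and -3.25 in WT brain (0.82). Egr2, which specifies hindbrain segments, was at -2.32 in CKO brain and -3.08 in WT brain (0.76). Diencephalic and eye regulators were split, with 5 of 11 below 0 and a median of 0.01. Six6 and Rax, both needed for eye and hypothalamus, had the largest differences there. Six6 was at -5.14 in CKO brain and -4.58 in WT brain (-0.56), and Rax at -3.88 in CKO brain and -3.43 in WT brain (-0.45). Among 6 measured patterning signals, 3 were below 0. Wnt8b, made at the cortical hem, was at -4.88 in CKO brain and -4.27 in WT brain (-0.61), and Bmp4 was at -2.15 in CKO brain and -2.51 in WT brain (0.36). Six6 and Wnt8b were dim on both arrays. The lowest signal well above background was -6.19 in CKO brain and -5.36 in WT brain.

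General neural genes had medians near 0 in brain. The 10 neuron markers, Tubb3, Dcx and Stmn2 among them, had a median of 0.01, with 5 below 0. Their signals over the array's 75th percentile summed to 330 in CKO brain and 334 in WT brain. The 7 measured progenitor markers had a median of -0.08, with 4 below 0, and their summed signal was 151 in CKO brain and 168 in WT brain. Over the 824 genes at least 8-fold higher in brain than in limb, the median was -0.01 and 52.7% were below 0. Products of forebrain neurons were near level, with 7 of 8 below 0 and a median of -0.10. The vesicular glutamate transporter Slc17a7 was at -4.14 in CKO brain and -3.85 in WT brain (-0.29), and the GABA-synthesis enzyme Gad2 was at 2.05 in CKO brain and 2.21 in WT brain (-0.16).

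Markers of tissue other than neural tube moved with genotype in the brain pair. Of 9 cartilage markers, 9 were measured in CKO brain and 6 in WT brain, 7 differed 2-fold or more (higher in CKO), and their summed relative signal was 21.3 in CKO brain and 8.06 in WT brain. Acan, the proteoglycan of cartilage, was at -0.81 in CKO brain and -4.86 in WT brain, and Matn1, Matn3 and Hapln1 were not above background in WT brain. Among 18 limb regulators, 3 differed 2-fold or more in brain, all higher in CKO: Tbx15 (1.59), Msx2 (1.02) and Prrx1 (1.02), all genes of mesenchyme. The sum over all 18 was 8.09 in CKO brain and 7.66 in WT brain. Whether the 2 brain samples held different shares of forebrain, hindbrain or surrounding tissue was not tested, and with 1 array each the sample and the genotype cannot be told apart.

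**Figure D3:**
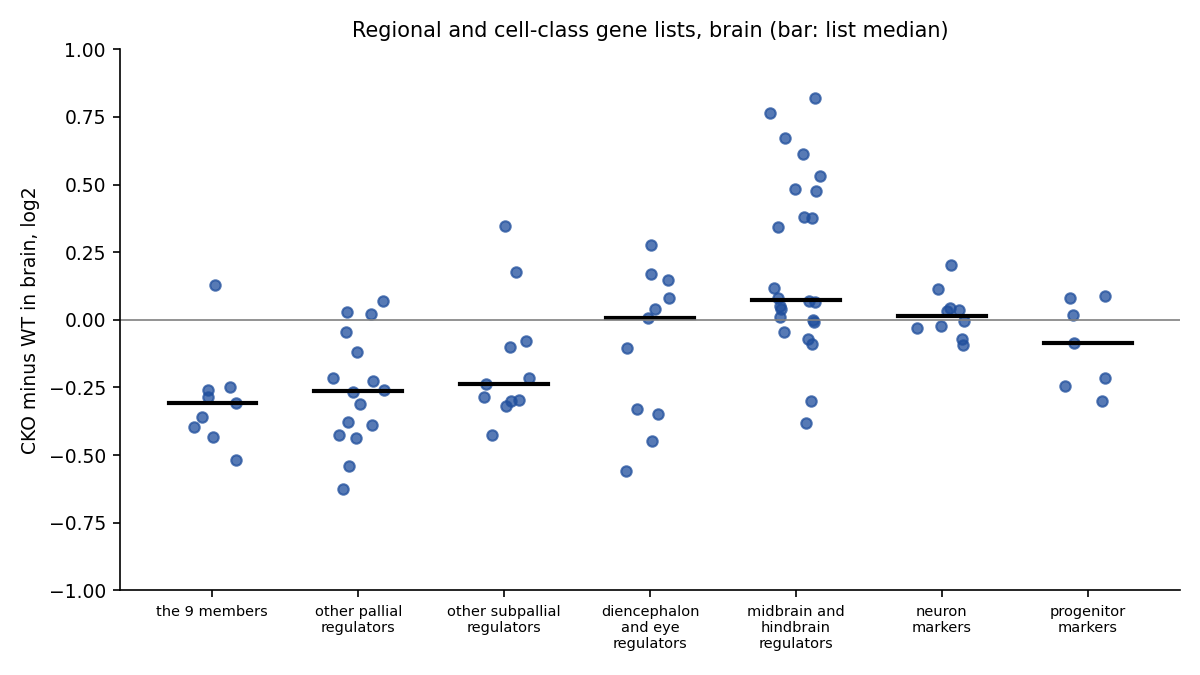
CKO minus WT difference in brain, in log2, of each measured gene of 7 lists, with a bar at each list's median. Medians are -0.31 for the 9 members, -0.26 for other pallial and -0.24 for other subpallial regulators, against 0.01 for diencephalon and eye regulators, 0.07 for midbrain and hindbrain regulators, 0.01 for neuron markers and -0.08 for progenitor markers.

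In limb, Six3 and Dmrta2 were far lower in CKO than in WT, and the other 5 members with a limb signal differed by less than 1.5-fold. All 7 members compared were below 0, against 55.1% of 18450 genes, and 2 were at least 2-fold lower, against 2.16% (2.49% were at least 2-fold higher). At 1.5-fold the same 2 members were lower and 0 higher, against 4.73% of genes lower and 4.77% higher. The median of the 7 was -0.28 log2, against -0.02 over all genes. Lhx2 (-0.10) and Emx1 (-0.14) differed by less than the scanner software's error of a difference, 0.20 and 0.21 log2.

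Six3 was read by 2 probes whose signals did not match in limb. The brighter probe lies on chromosome 17 at 86021014-86021073 (mm9, plus strand) and the other 472 bases further on, at 86021546-86021605. Both are shown in lower case, the first in full and the other as its middle 30 bases, because the limb result rests on 1 of them.
Six3 brighter probe: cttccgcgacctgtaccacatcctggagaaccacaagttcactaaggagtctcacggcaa
Six3 dimmer probe, bases 16 to 45: actggctgtgggtttatatactgctttgct
At the brighter probe the background-subtracted intensity was 3.96 in CKO limb, which is not above background, against 560 in WT limb, 110 in CKO brain and 90.6 in WT brain. WT limb was therefore brighter than either brain sample. The limb difference is a bound, at least 39.1-fold lower in CKO limb, and 0.0271% of genes were as low. That size depends on the processing: the difference was -5.29 log2 here, -3.18 with the normexp background correction and -1.91 as the mean of both probes. The dimmer probe was not above background on any array, with an intensity of 5.16 in WT limb, and Six3os1 was likewise below background in both limb samples.

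Dmrta2, a doublesex-related factor of the medial cortex, had a single probe, on chromosome 4 at 109656028-109656087 (mm9, plus strand), whose middle 30 bases are shown for the same reason.
Dmrta2 probe, bases 16 to 45: acattgtacgtatcgggttttatagctgaa
Its intensity was 20.9 in CKO limb and 207 in WT limb, against 1368 in CKO brain and 1472 in WT brain. On the log2 scale that is -5.47 in CKO limb and -1.91 in WT limb, 11.8-fold lower in CKO limb (-3.56, technical SD 0.16), and 0.130% of genes were as low. The CKO limb signal lay close to -5.76, the lowest signal well above background on that array, so the size of the fold is uncertain. The scanner software's error of this difference was 0.33 log2, larger than the technical SD. With the normexp background correction the difference was -1.79 log2. Its brain samples were close to each other, so the spread lay in limb alone.

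The WT limb spots of both genes were uneven. The pixels of the brighter Six3 spot had an SD of 40.4% of their mean, higher than in all 500 spots nearest in brightness on that array, whose median was 13.3%. For Dmrta2 the value was 28.2%, higher than in 99.6% of such spots. The WT limb spot of the brighter Emx2 probe was also uneven, at 20.9%, higher than in 99.2% of such spots. Emx2 differed by -0.28 log2 in limb at that probe. The scanner software marked none of these spots as an outlier. The mean and the median pixel signal of the Six3 spot were 624 and 546, against 71.4 and 71 in CKO limb. Its mean over median in WT limb was 1.14, at percentile 100 among the 500 spots nearest in brightness. For Dmrta2 the mean and the median were 300.0 and 282 in WT limb, against 101 and 101 in CKO limb. The mean over median of the Dmrta2 spot in WT limb was 1.06, at percentile 99.

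Uneven spots on the brighter array were common among genes with such large limb differences. Of 37 genes at least 8-fold lower in CKO limb, 28 had a WT limb spot at or above the 99th percentile of unevenness among spots of like brightness. Six3 and Dmrta2 themselves meet both limits. Of the 96 genes with 1 spot that were at least 8-fold higher in CKO limb, 10 had such a spot on the CKO limb array. The part that spot unevenness plays in the Six3 and Dmrta2 differences was not tested.

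**Figure D4:**
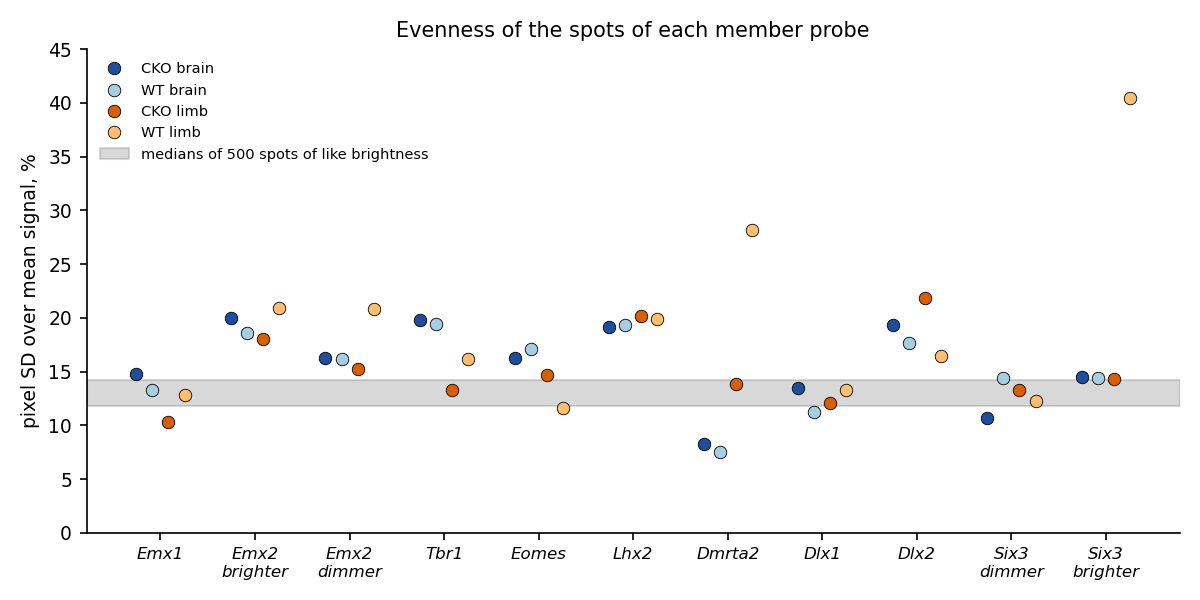
Pixel SD as a percent of mean pixel signal for the spot of each member probe on each array, with the grey band spanning the medians of the 500 spots nearest in brightness. Six3 at 40.4% and Dmrta2 at 28.2%, both on the WT limb array, stand above every other member spot.

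The remaining members differed by less than 1.5-fold in limb. Dlx2, which acts in the limb ectoderm as well as the subpallium, was at -1.37 in CKO limb and -0.79 in WT limb, 66.9% of WT (-0.58, technical SD 0.090). That is a wider difference than any of the members had in brain, and 4.80% of genes in limb were as low. Dlx1 was at 82.7% of WT (-0.27, technical SD 0.13). Emx2 differed by -0.28 and -0.32 at its 2 probes, with technical SDs of 0.074 and 0.11. Lhx2 was at 93.1% of WT (-0.10, technical SD 0.069), with bright signal in both limb samples. Emx1 was at -2.04 in CKO limb and -1.90 in WT limb, 90.6% of WT (-0.14, technical SD 0.10). The 60 bases of its probe are spread over 9746 bases of chromosome 6 (85144192-85153937, mm9, plus strand), and the probe is shown because Emx1 is best known as a cortical gene.
Emx1 probe: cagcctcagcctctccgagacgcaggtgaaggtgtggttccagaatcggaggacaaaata
The Emx1 intensity at this probe was 225 in CKO limb and 208 in WT limb, well above background in both. Lhx2 was likewise brighter in CKO limb before scaling, at 3154 against 2836 in WT limb. The 75th percentile was 928 on the CKO limb array and 777 on WT limb, so the signs of these 2 differences come from the scaling.

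Among other forebrain regulators, most pallial ones were dark in limb and most subpallial ones were not. Of the 16 other pallial regulators 7 were measured, with a median of -0.26, and Neurod2, a factor of young cortical neurons, was 3.09-fold lower, at -4.84 in CKO limb and -3.21 in WT limb. Of the 11 other subpallial regulators 9 were measured, with a median of -0.04 and none at 2-fold. Among 6 measured diencephalic and eye regulators of 14 the progenitor factor Dbx1 differed by 0.96 and Mitf, of pigment cells, by -0.21, and 2 were below 0. The 3 measured patterning signals were all below 0, with Fgf8, a signal of the ectodermal ridge, at -0.61 and Wnt3a at -0.60. Of 7 forebrain neuron products compared, 3 were at least 2-fold higher in CKO limb and 1 was below 0. Their median was 0.28, and 0.13 with the normexp background correction. Slc17a6, a vesicular glutamate transporter, was at least 7.74-fold higher in CKO limb, Gad2 at least 3.38-fold and the peptide gene Sst 3.66-fold. The neuron markers had a median of 2.30, with 6 of 10 at least 2-fold higher and a summed signal of 19.5 in CKO limb and 4.30 in WT limb. That median was 2.03 with the normexp background correction and 1.22 with the mean of all probes. Over the 8 neuron markers well above background on both limb arrays it was 1.48. Of the 7 members compared, 0 were at least 2-fold higher in CKO limb, against 2.49% of all genes. With so small a share over all genes, that count does not set the members apart.

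Hindbrain and limb regulators gave the context in limb. Hoxa2 was 4.06-fold and Hoxb4 2.67-fold higher in CKO limb, while the 14 measured midbrain and hindbrain regulators had a median of 0.04. The 18 limb regulators had a median of -0.02 with none at 2-fold. Epidermal markers had a median of -0.52, 5 of 7 below 0, with a summed signal of 81.1 in CKO limb and 118 in WT limb. Erythroid markers had a median of -1.16, 5 of 7 below 0, with 4 at least 2-fold lower and 1, Epor, 2.76-fold higher. Their summed signals were 209 in CKO limb and 463 in WT limb. Most of each sum came from Hba-a1, at 7.58 in CKO limb and 8.75 in WT limb. The part that epidermal or blood content plays in the limb values of the members was not tested.

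The members' relatives were compared next. All 6 Dlx genes were below 0 in limb. Dlx3 and Dlx4, which act in skin and its appendages, were 2.36-fold and 2.42-fold lower in CKO limb and dark in brain. Both were dim in limb. Dlx3 was at -5.11 in CKO limb and -3.87 in WT limb, and Dlx4 at -4.81 in CKO limb and -3.53 in WT limb. The lowest signal well above background on the CKO limb array was -5.76. Dlx5 differed by -0.27 and Dlx6 by -0.06 in limb. In brain, Dlx1, Dlx2, Dlx5 and Dlx6 lay within -0.30 to -0.25. Dlx1 with Dlx2 and Dlx5 with Dlx6 are neighbouring gene pairs that share enhancers.

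Of the other Six genes, Six2, a factor of mesenchyme and kidney progenitors, was at least 5.24-fold higher in the CKO brain array, against a WT brain spot that was not well above background. In limb Six2 differed by 0.27. Six4 differed by 0.40 and Six5 by -0.19 in limb. Six6, the closest relative of Six3, was dark in limb. In brain, Six5 differed by 0.08 and Six4 by at least 0.36.

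Among LIM-homeodomain genes, Lhx9, which acts with Lhx2 in the limb bud, differed by 0.06 in limb and by -0.25 in brain. In brain, Lhx6 differed by -0.22, Lhx5 by -0.12, Lhx1 by -0.07 and Lhx4 by 0.23, and Lhx3 was above background in CKO brain alone with a bound of 0. In limb, Lhx6 differed by 0.16, Lhx8 by 0.40 and Lhx1 by at least 0.21. Of the Dmrt genes, Dmrt2, which acts in somite muscle, differed by -0.58 in limb and -0.20 in brain. Dmrta1 differed by at least 0.15 in limb and by -0.25 in brain, and Dmrtb1 by -0.36 in limb and 0.06 in brain. Dmrt3, a pallial regulator, differed by 0.02 in brain, and Dmrt1 was dark throughout. Tbx21, the T-box relative of Tbr1 and Eomes, differed by -0.03 in brain and at least 0.34 in limb. None of these differences other than Dmrta2's reached 2-fold.

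CKO was also set against WT over both tissues in the limma fit that took tissue into account. The fit called 0 of the 9 members (adjusted p = 0.755 for each). Its estimates for Tbr1, Eomes and Six3 take in limb signals that were not above background, on both arrays for Tbr1 and Eomes and in CKO limb for Six3, and are not read further. The other 6 members, measured on all 4 arrays, were below 0. Over all genes this fit called 0.0% in either direction, and 4.92% had an unadjusted p under 0.05, with 2.33% of all genes passing that level and lower in CKO. Of those 6, Dlx1 and Emx2 were lower at that unadjusted level. Emx2 was fitted at -0.29 (SE 0.060) and Dlx1 at -0.26 (SE 0.060), 2 CKO arrays against 2 WT arrays. With 1 residual degree of freedom the fit leans on a spread pooled over genes.

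Genes with the most similar pattern over the 4 arrays were found by the distance between log2 values centred on each gene's mean, among genes measured on the same arrays. Each value was first raised, where it was lower, to the lowest signal well above background on its array, -5.76 in CKO limb and -4.95 in WT limb. For Tbr1 and Eomes, dark in limb, the distance therefore compares brain signals alone. Tbr1 lay nearest to 3110039M20Rik (0.12) and Pax6 (0.13), a regulator of cortical progenitors, and Eomes was its 6th neighbour of 671 candidates. Eomes lay nearest to Fam183b (0.29) and St18 (0.30), with Tbr1 next (0.32). Emx1 lay nearest to Sox11 (0.10), a factor of young neurons, and Lzts1 (0.12), and Lhx2 to Gpc2 and Tal1 (0.15 each). Dlx1 lay nearest to Foxo6 (0.09) and Syn3 (0.13), Dlx2 to Grin2b (0.14) and Dpf1 (0.15), and Emx2, flat over the arrays, to Hps3 and an unnamed transcript (0.04 each). Dmrta2 had no near neighbour among 15630 candidates, with Map7d2 at 0.96 and Lnx1 at 0.97. Six3 had 11 candidates and none near, with AK028486 at 1.98 and Grik2 at 2.08. These distances describe 4 arrays and carry no test.

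The letters before the members' start sites were searched for the element that REST binds. RefSeq promoters (GRCm38.p6) gave 10 windows of 250 bases for the 9 members, Lhx2 having 2. The joined element TTCAGCACCNNGGACAG was in 0 of the 10 windows and in 0.00913% of 32851 such windows, searched on both strands. The part TTCAGCACC was in 0 of 10, against 0.301%, and GGACAG was in 1, a window of Lhx2, against 18.7%. TAATTA, the core letters that homeodomain proteins such as Emx, Lhx and Dlx factors bind, was in 1 member window, that of Tbr1, against 4.84%. The Tbr1 window, chr2:61804203-61804452 on the plus strand, is shown for its 2 matches, in capitals, the farther of them ending 28 bases before the start.
Tbr1 promoter: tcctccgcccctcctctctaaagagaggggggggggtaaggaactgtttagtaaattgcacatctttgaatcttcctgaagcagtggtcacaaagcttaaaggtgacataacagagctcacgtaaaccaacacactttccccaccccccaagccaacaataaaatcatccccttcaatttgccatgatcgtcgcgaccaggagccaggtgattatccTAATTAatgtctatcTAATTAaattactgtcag
A match of letters is a description and not a binding site. CCAAT was in 5 member windows, those of Dlx2, Dmrta2, Emx2, Eomes and Six3, against 33.8% of all windows.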

How the data were processed

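RNA of 4 samples was hybridised to 1-colour Agilent arrays. The submitters' processing notes name Agilent Feature Extraction 9.5.3.1. Per the file headers, the deposited intensity of a spot had background and a spatial trend removed array by array, and arrays were not scaled to each other. The raw mean and background intensities in the deposited files served the normexp correction (offset 50) alone.

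The log2 intensity minus the 75th percentile over the 43379 non-control spots of its array was averaged per probe, outlier spots left out. A gene was read by the probe brightest on average and compared where well above background on at least 1 array of the pair. Where genes of a list are called measured for a pair, they are those compared. Where 1 array was not, the difference is a bound against the lowest normalized signal well above background there, written "at least". Brain minus limb and CKO minus WT were fitted together in limma 3.58.1 (R 4.3.3) with Benjamini-Hochberg adjustment. Only the brain minus limb test was tried on simulated data. Other calculations used Python 3.11.15, pandas 2.3.3 and numpy 2.4.6. All 4 arrays lay on 1 slide, and their number limits the precision.

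The members and gene lists were chosen with earlier results of these data known. Named genes were all members and their paralogs, and of each other list those differing at least 2-fold (up to 4), otherwise the 2 with the largest difference measured on both arrays. Some genes that this rule names are not reported here; the counts and medians of the lists include them. Examples of cell markers and the 8-fold limit for counting uneven spots were chosen after their values were seen. Alternatives were normexp, quantile or median scaling, another percentile, the deposited series table, the mean of all probes, stricter detection, and leaving out each array. Probe names came from RefSeq by accession for 26933 probes, by symbol for 5570 and by synonym for 894, and 7777 kept the file's name. Probe positions are those of the files (mm9).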

Additional observations from a re-analysis of the deposited data

Results flagged for a closer look

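Six3 was the member whose differences had opposite signs in the 2 tissues under the scaling used here, but not with the normexp background correction (-3.18 in limb, -0.01 in brain) or as the mean of its 2 probes (-1.91 in limb, -0.27 in brain). The difference was a bound of -5.29 log2 in limb, where CKO limb was not above background, and 0.13 in brain, where both samples were measured but dim. The difference between the tissues was not tested, since each rests on 1 CKO array and 1 WT array. The limb bound rests on 1 spot of the WT limb array, whose pixels were the most uneven among 500 spots of like brightness.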

How the results depend on the processing

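In limb the 7 members compared were below 0 under each of the settings that kept them, and their median stayed between -0.30 and -0.23 log2. In brain it stayed between -0.34 and -0.28. Asking for signal well above background on both arrays left 1 member at least 2-fold lower in limb, Dmrta2, because Six3 is then not compared. The Dmrta2 signal in CKO limb, -5.47, lay close to the lowest signal well above background there, -5.76. In brain, Six3 turned to -0.01 with normexp and to -0.27 with the mean of its 2 probes, so 9 of 9 members were below 0. Each array was also left out in turn, with tissue alone in the model, and no count of members called is given for those fits. Such fits leave 1 array in a tissue, which is assumed to vary as the other tissue does. Six3 brain minus limb changed sign to -0.41 with normexp and to -2.78 without CKO limb, and was 4.62 without WT limb. Dmrta2 was 2.48 without CKO limb and 6.05 without WT limb, and with normexp on all 4 arrays it was called at 3.06. In limb, Six3 CKO minus WT was -3.18 with normexp and -1.91 with the mean of its probes, and Dmrta2 was -1.79 with normexp. Tbr1 kept its direction but not its call without either brain array. Emx2, level between tissues, changed sign to -0.00255 with the percentile over detected probes, to -0.090 without CKO limb and to -0.11 without WT brain. The causes were not tested. No paired analysis was possible because each group has 1 array and the labels give no replicate numbers.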

Other observations

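Markers of vessels, macrophages and muscle were above 0 in the brain pair. All 5 endothelial markers were higher in CKO brain, with a median of 0.20 log2, and Cdh5, the cadherin of vessel walls, was at 0.31 in CKO brain and -0.06 in WT brain. All 6 microglia and macrophage markers were above 0, with a median of 0.15. All 6 measured muscle markers were above 0, and Myh3, an embryonic myosin, was at -3.07 in CKO brain and -4.65 in WT brain. Among 6 measured eye markers, the lens crystallin Crygc was at -5.69 in CKO brain and -2.18 in WT brain, whereas the pigment cell gene Pmel was at -3.49 in CKO brain and -4.52 in WT brain.

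Uneven spots were also found among genes with large differences in brain. Of 59 genes at least 8-fold lower in CKO brain, 32 had a WT brain spot at or above the 99th percentile of unevenness for its brightness. Of 16 genes at least 8-fold higher in CKO brain, 3 had such a spot on the CKO brain array. None of the 9 members is among these genes, and the part that unevenness plays was not tested.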
